A study of Oryza sativa with 39 samples.

Results

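The expression of 10 genes of strigolactone synthesis, strigolactone perception and tillering control was compared across 13 rice lines, out of 109715 entries in the expression files. The members were chosen by name for their known place in this pathway, and no measured value was part of the rule. Earlier results of these data were known when they were chosen. They were D27 (OS11G0587000), D17 (OS04G0550600), D10 (OS01G0746400), the MAX1 homologues OS01G0700900 and OS01G0701400, D14 (OS03G0203200), D3 (OS06G0154200), D53 (OS11G0104300), FC1, also called TB1 (OS03G0706500), and IPA1 (OS08G0509600). All 10 were listed in the expression files. Of these, 4 were read well in every library (D17, D10, D14 and D3), D27 was read in every library at a low level, 3 gave a few reads in a few libraries and 2 were listed at 0 in all 39 libraries.

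Strigolactones are carotenoid-derived hormones that are released from roots and also suppress the outgrowth of axillary buds, so that rice mutants in their synthesis or perception form many short tillers. The isomerase D27 and the carotenoid cleavage dioxygenases D17 (CCD7) and D10 (CCD8) act one after the other to give carlactone, which cytochrome P450 enzymes of the MAX1 family oxidize further. The hydrolase D14 binds the hormone and, with the F-box protein D3, marks the repressor D53 for degradation. FC1, a TCP transcription factor, and IPA1, an SBP-box transcription factor, restrain tiller growth downstream.

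The leaf libraries came from 7 XI (Xian/Indica) and 6 GJ (Geng/Japonica) lines grown in a greenhouse for 5 weeks to the tillering stage, with 3 libraries per line, each a pool of 2 cm leaf sections of 5 plants. The XI lines were the parental variety MH63, the genetically engineered (GE) lines T1C-19 (cry1C, maize ubiquitin promoter) and HH1 (fused cry1Ab/Ac, rice actin1 promoter), both made from MH63, and XIY63, XXY63, SY63 and JY63, bred conventionally with MH63 as a parent. The GJ lines were the parental variety XS11, the GE lines KMD1 and KMD2 (separate transformation events of cry1Ab, maize ubiquitin promoter), both made from XS11, and CJ03, JH1 and T202, bred conventionally with XS11 as a parent. None of the lines was changed in a strigolactone gene by design, so the comparisons asked how far these genes vary among lines and whether they differ between each line and its parent. The values were FPKM, which scale reads by gene length and sequencing depth, and whole reads were recovered from them. Libraries held from 3989669 to 8318219 reads on genes (median 5492626), with the lowest mean depth in HH1 (4187230) and the highest in MH63 (7520237). These numbers lie far below the clean reads per library that the paper reports, and the reason was not tested.

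Values of 0 need care in these files. Of 7 entries chosen as markers of green leaf blade, 4 reached 0.5 FPKM in a library, 2 were listed at 0 in every library and 1 had a single read, and 36.8% of the 37830 reference loci were listed at 0 throughout. The summed level of these 7 entries lay between 883 and 2577 FPKM in XI libraries and between 1279 and 4331 FPKM in GJ libraries. Most of this sum came from 1 entry, OS01G0869800, at 859 to 4185 FPKM over all libraries. The 3 shoot meristem and 3 root entries summed to at most 0.351 FPKM in any library, and 2 entries of each list were at 0 in all of them. The 2 inflorescence entries both reached 0.5 FPKM in a library, and their sum was at most 0.370 FPKM in XI libraries and at most 1.21 FPKM in GJ libraries, with both at 0 in T202. This difference goes with the subspecies only in some lines, as T202 is a GJ line. The part of this difference in the results between subspecies was not tested. Members at 0 are therefore described as listed at 0, and no statement on absence was made.

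D3, the F-box protein of the receptor complex, had the highest level of the members. Its 39 libraries ranged from 10.8 to 46.5 FPKM (median 28.2), which rest on 25950 reads in all. The line means ran from 12.6 ± 1.58 FPKM in HH1 (SD, n = 3) to 39.2 ± 9.65 FPKM in XXY63. HH1 was the lowest line, with 10.8, 13.4 and 13.6 FPKM in its 3 libraries (175, 212 and 229 reads). Its parent MH63 had 23.0, 31.0 and 26.7 FPKM, and the other GE line of that background, T1C-19, had 36.6, 33.6 and 40.8 FPKM. The libraries of HH1 overlapped with neither of the others. In GJ lines, D3 was lowest in T202, at 13.1, 22.7 and 22.7 FPKM, and its parent XS11 had 21.4, 28.7 and 23.5 FPKM, so these overlapped. The lowest T202 library also lay within the range of HH1. The remaining 8 lines had means between 24.9 and 39.2 FPKM.

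D14, the hormone receptor, was the steadiest of the well-read members. It ranged from 12.02 to 27.9 FPKM (median 19.7), and the highest line mean was 1.64 times the lowest. JH1 had 24.1, 26.6 and 24.1 FPKM and XS11 had 20.8, 25.9 and 25.1 FPKM, the highest means. JY63 had 19.1, 13.6 and 12.7 FPKM, the lowest mean. On the log2(FPKM + 1) scale, the SD between line means of D14 was 0.22 and the SD between libraries of a line was 0.21. The first is an SD of means of 3 libraries and the second an SD of single libraries.

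D17, which makes the first of the 2 cleavages, ranged from 2.50 to 12.2 FPKM (median 6.05) on 2916 reads. HH1 was highest at 10.1, 8.58 and 10.9 FPKM, followed by the GJ line T202 at 12.2, 8.07 and 7.57 FPKM. KMD2 was lowest at 3.06, 2.50 and 3.83 FPKM, followed by KMD1 at 5.26, 3.78 and 3.92 FPKM. Both KMD lines thus lay at the lower end of the order, and the libraries of KMD2 overlapped with neither those of HH1 nor those of T202. The parents were close to each other, with 8.65, 5.94 and 5.95 FPKM in MH63 and 7.65, 6.45 and 4.83 FPKM in XS11.

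D10, which makes the second cleavage, had the widest range between lines, from a mean of 1.12 FPKM in KMD2 to 7.58 FPKM in MH63, a ratio of 6.78. MH63 had 11.7, 4.06 and 7.02 FPKM, whereas XS11 had 1.38, 1.87 and 1.65 FPKM. The other low lines were KMD2 at 0.802, 0.804 and 1.74 FPKM and JH1 at 0.889, 0.884 and 2.53 FPKM. These 3 GJ lines rest on few reads, between 7 and 22 per library. The remaining GJ lines lay higher. KMD1 had 2.66, 3.95 and 4.42 FPKM, CJ03 had 2.96, 3.41 and 3.47 FPKM and T202 had 2.94, 4.08 and 4.59 FPKM, all above each XS11 library. Replicates of the XI lines scattered widely, as in SY63 (9.26, 5.76 and 2.46 FPKM) and JY63 (3.49, 4.48 and 10.02 FPKM). The means of the other XI lines lay between 3.59 FPKM in XXY63 and 5.14 FPKM in HH1.

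D27, the isomerase at the start of the pathway, stayed between 0.0997 and 0.908 FPKM (median 0.430), with between 2 and 19 reads per library and 350 in all. The line means ran from 0.273 ± 0.188 FPKM in JH1 to 0.707 ± 0.180 FPKM in CJ03 (SD, n = 3). KMD1 shows how coarse these values are, with 0.143, 0.639 and 0.0997 FPKM from 3, 13 and 2 reads. The SD between line means (0.14 on the log2 scale) was below that between single libraries of a line (0.20), although a mean of 3 libraries varies less than a single one.

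**Figure D1:**
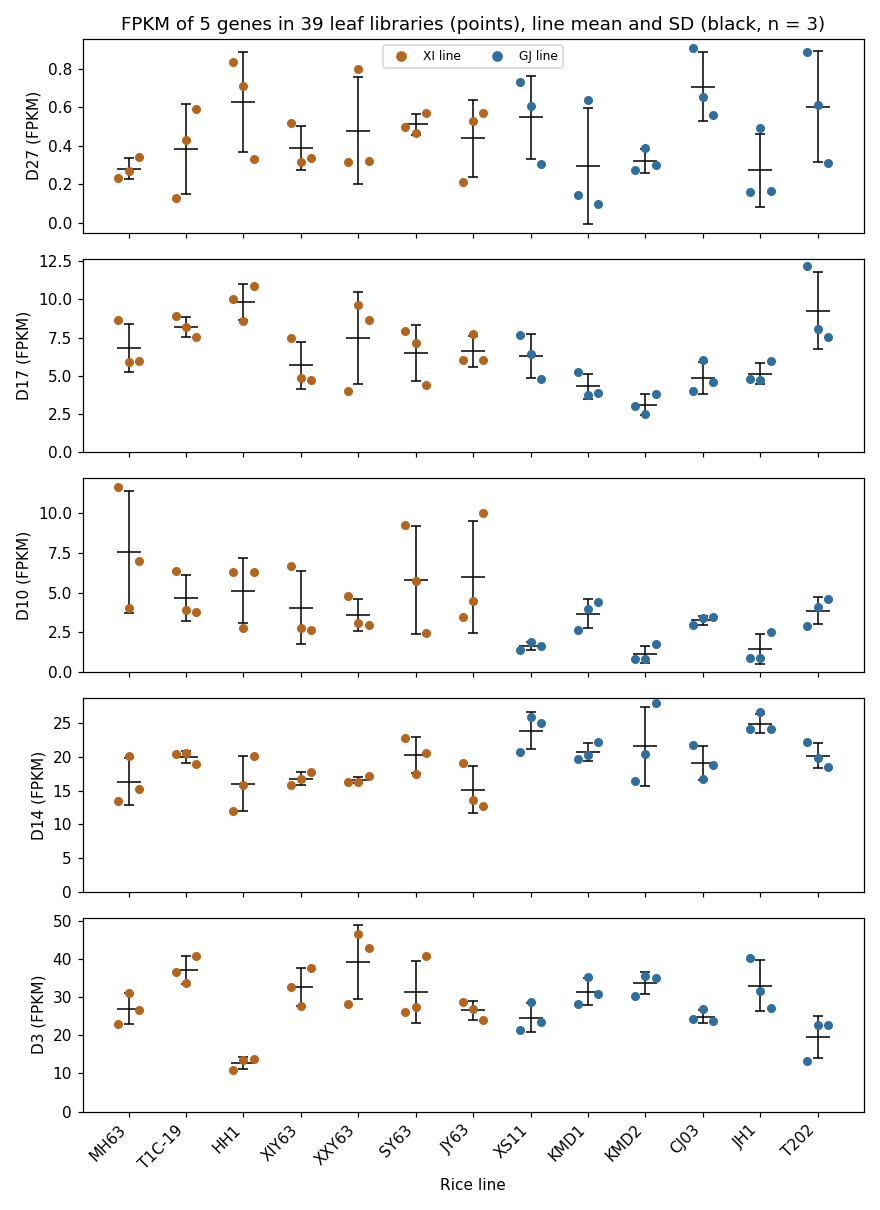
FPKM of D27, D17, D10, D14 and D3 (vertical axes, from 0 or just below it) in the 39 leaf libraries, grouped by line along the horizontal axis. Points are libraries (brown for XI, blue for GJ), and black bars give the line mean and SD of 3 libraries. The 3 HH1 libraries lie low in the D3 panel, at 10.8 to 13.6 FPKM, with 1 library of T202 among them, and XS11, KMD2 and JH1 at the bottom of the D10 panel, with means of 1.12 to 1.63 FPKM.

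The other members gave few or no reads. For the MAX1 homologue OS01G0700900, which oxidizes carlactone, 11 reads were found in 7 libraries. KMD2 had 4, 1 and 1 reads, T202 had 1, 2 and 1, and CJ03 had 1 in the third library only, so all 7 libraries came from 3 of the 6 GJ lines. The largest of these values was 0.283 FPKM, in KMD2. It was listed at 0 in all 21 XI libraries and in XS11, KMD1 and JH1. In a test of log2(FPKM + 1) line means without the filter on low values, the GJ minus XI difference of this gene was 0.07 ± 0.03 (SE), with an adjusted p of 0.177 (limma). FC1 had 3 reads in 2 libraries, 2 in KMD1 (0.182 FPKM) and 1 in JH1 (0.102 FPKM). IPA1 had 6 reads in 4 libraries, with 2 and 1 in MH63, 1 in KMD2 and 2 in T202, and reached 0.205 FPKM at most. Tested without the filter, no pair of lines was called for OS01G0700900 (33 pairs), FC1 (23) or IPA1 (33), and none had an unadjusted p below 0.05 (limma). In an F test over the 13 lines without the filter, OS01G0700900 had an adjusted p of 0.000322, FC1 of 0.695 and IPA1 of 0.382, where 56.1% of all entries passed. That result of OS01G0700900 rests on its 11 reads, and within the 6 GJ lines it did not pass (adjusted p = 0.0706).

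**Figure D2:**
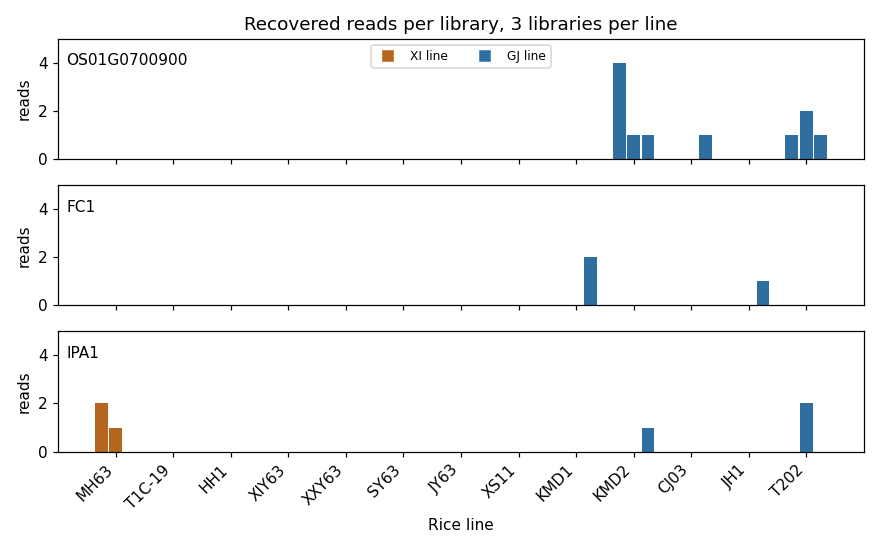
Recovered reads per library (vertical axes) of OS01G0700900, FC1 and IPA1 in the 3 libraries of each line (brown for XI, blue for GJ). No bar exceeds 4 reads, and OS01G0700900 has reads only in KMD2, CJ03 and T202.

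The second MAX1 homologue, OS01G0701400, which makes orobanchol, and the repressor D53 were listed at 0 in all 39 libraries. Rice carries a close copy of D53, and reads that fit both copies may have been split or dropped in counting, so its value is uncertain. OS12G0104300, entered in a wider list as that copy from general knowledge and not named in the expression files, had 195 reads in all. It ranged from 0 to 0.520 FPKM, and its line means lay between 0.105 and 0.345 FPKM in XI lines and between 0.0148 and 0.161 FPKM in GJ lines. It did not pass the filter on low values, so the limma tests with that filter left it out. Its mean over lines was 0.234 FPKM in XI and 0.102 FPKM in GJ. An exact permutation test over splits of the line means between the subspecies gave an unadjusted p of 0.0064. That result rests on few reads, at most 15 in a library, and the lines of a subspecies share a parent.

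Each line was first tested against its parent with limma on log2(FPKM + 1), over genes with at least 0.5 FPKM in at least 3 of the 6 libraries. A gene was called a differentially expressed gene (DEG) when its adjusted p lay below 0.05 and it changed at least 2-fold up or down. D17, D10, D14 and D3 passed the filter in all 11 comparisons, D27 in 3 of them, and the 5 other members in none. The comparisons within a subspecies share the libraries of 1 parent, so their values are not independent.

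D3 in HH1 was the only DEG among the members in these 11 comparisons. It was lower in HH1 than in MH63 by a log2 difference of -1.03 ± 0.15 (SE), a fold change of 2.04, with an adjusted p of 0.00185. In this comparison 17.6% of all genes tested were called, the largest share of any line against its parent. The fold change lay just past the limit and fell below it without HH1 replicate 1 (log2 difference -0.93, adjusted p = 0.00723) or without MH63 replicate 2 (-0.93, adjusted p = 0.00235), and also without replicate 2 of both lines (-0.97, adjusted p = 0.00550). Depth was lowest in HH1, and its part in the result was not tested. In a bulk leaf sample, fewer cells of a type and less RNA per cell cannot be told apart. In the other 5 comparisons with MH63, the log2 differences of D3 lay between -0.01 in JY63 and 0.51 in XXY63, and none passed. The shares of genes called there were 2.19% for T1C-19, 8.74% for XIY63, 4.14% for XXY63, 8.27% for SY63 and 5.54% for JY63.

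Below the 2-fold limit, the adjusted p of a member passed 0.05 in 3 comparisons, all with XS11. Counted by the adjusted p alone, 4 of 47 member tests in the 11 comparisons passed, beside 13.2% of all tests over all genes. D10 was higher in CJ03 (log2 difference 0.70 ± 0.17 (SE), adjusted p = 0.0364) and in T202 (0.88 ± 0.20, adjusted p = 0.0260), where 10.3% and 9.69% of all genes were called DEGs and 14.4% passed by the adjusted p alone in each. The KMD1 libraries also lay above those of XS11 for D10 (0.81 ± 0.20), with an adjusted p of 0.0510 and 3.93% of genes called. D17 was lower in KMD2 (-0.82 ± 0.21, adjusted p = 0.0300), where 13.4% of genes were called DEGs and 24.4% passed by the adjusted p alone. Left without 1 library at a time, each of the 3 lost its adjusted p below 0.05 in some cases, with a highest value of 0.148 for D10 in CJ03 (without CJ03 replicate 2), 0.115 for D10 in T202 (without T202 replicate 3) and 0.106 for D17 in KMD2 (without KMD2 replicate 2). Over all 16 alternative settings, the highest adjusted p (limma) was 0.206 for D10 in CJ03, 0.276 for D10 in T202 and 0.208 for D17 in KMD2. D10 in T202 became a DEG without T202 replicate 1, at a log2 difference of 1.02. With FPKM over plain read totals, the log2 difference of D17 in KMD2 was -0.55 (adjusted p = 0.0897), while the median of all genes moved by 0.24 in that comparison. In JH1, where 3.05% of genes were called, the log2 differences of the 4 well-read members from XS11 lay between -0.23 for D17 and 0.40 for D3, and none passed.

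For D10, the 6 lines derived from MH63 all had a lower mean than MH63, by log2 differences between -0.82 in XXY63 and -0.31 in JY63, but none passed the test (lowest adjusted p = 0.235), the libraries overlapped with those of MH63 in each case, and they share that one parent. For D14, the differences from the parent lay between -0.31 in CJ03 and 0.31 in SY63, with a lowest adjusted p of 0.261. D27 was tested only for KMD1, CJ03 and T202 against XS11, with differences between -0.27 and 0.15.

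**Figure D3:**
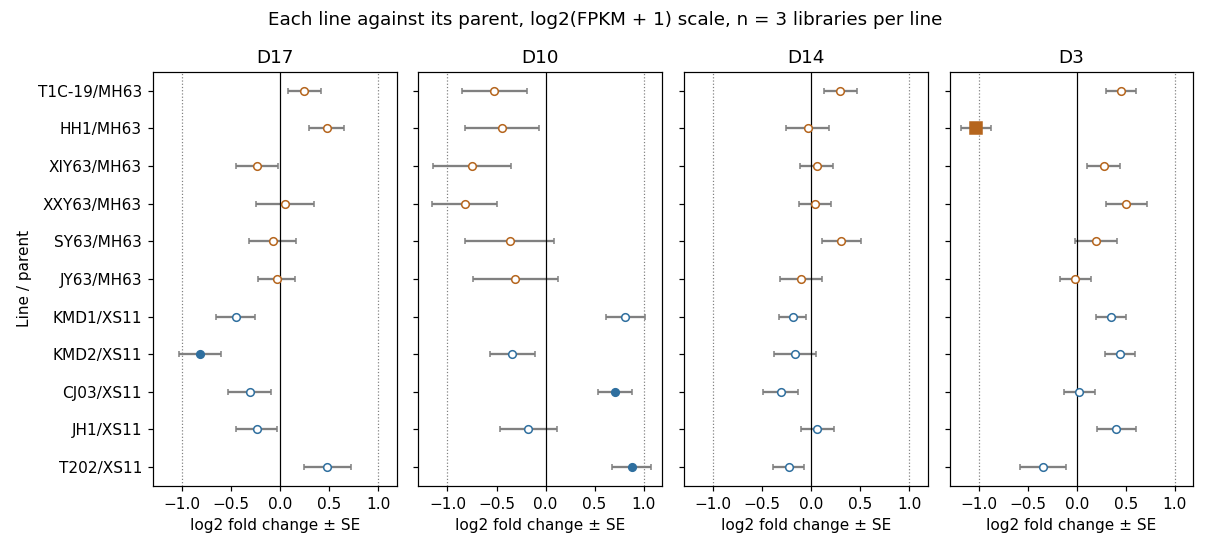
Log2 fold change of D17, D10, D14 and D3 (horizontal axes, log2(FPKM + 1) scale) in each line against its parent, with the SE (n = 3 libraries per line). Filled symbols have an adjusted p below 0.05, the square marks the single DEG, and dotted lines mark a 2-fold change. D3 in HH1 is the only point past a dotted line, at -1.03.

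Between the parental varieties, D10 was a DEG and lower in XS11 than in MH63. The log2 difference was -1.61 ± 0.33 (SE), a fold change of 3.05 (adjusted p = 0.00672, limma), against 33.8% of all genes called between these varieties. The 3 libraries of XS11 (at most 1.87 FPKM) lay below the 3 of MH63 (at least 4.06 FPKM). The difference was called under each of 16 alternative settings, where it lay between -2.08 and -1.21. D14 was higher in XS11 by 0.54 ± 0.18, below 2-fold (adjusted p = 0.0467), and with FPKM over plain read totals the adjusted p was 0.208. By the adjusted p alone, 52.9% of all genes passed between these varieties. D17 (-0.10) and D3 (-0.13) differed by less than their SE. The median log2 difference over the 4 members tested was -0.12, beside 0.01 over all genes tested.

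Across all 13 lines, an F test (limma) found differences among lines for 4 of the 5 members tested: D3 (adjusted p = 2.17e-06), D17 (0.000229), D10 (0.000413) and D14 (0.00636), but not D27 (0.258). Among all genes tested, 78.2% passed the same test, so the share of members was close to the background. Among the 7 XI lines only D3 passed (adjusted p = 5.24e-05), where 55.5% of all genes did. Among the 6 GJ lines D10 (0.00207), D17 (0.00291) and D3 (0.0211) passed, where 42.9% of all genes did. D14 lost its call over 13 lines without replicate 2 (adjusted p = 0.202) or replicate 3 (0.0925) of every line. Within GJ lines, none of the 3 passed without replicate 2 (D10 0.131, D17 0.0920 and D3 0.149), and D3 did not pass without replicate 1 (0.0514) or replicate 3 (0.111) either.

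The 13 lines form 78 pairs, and the pairs show which lines carry these differences. Members gave 350 tests over the pairs and were called in 33 of them, or 9.43%, beside 21.7% of all tests over all genes. Within XI lines 6 of 93 member tests were called (background 11.4%), within GJ lines 4 of 68 (background 8.78%), and between subspecies 23 of 189 (background 31.0%).

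D3 was called in 9 pairs, and HH1 was a partner in each of them. HH1 was lower than all 6 other XI lines, by log2 differences between 1.02 (JY63) and 1.54 (XXY63), and lower than KMD1, KMD2 and JH1. The other 3 pairs of HH1 were not called: XS11 (0.90 higher, adjusted p = 0.00353) and CJ03 (0.93 higher, adjusted p = 0.00172) stayed below 2-fold, and T202 was 0.56 higher with an adjusted p of 0.0957. Pairs that share HH1 share its 3 libraries. When the lines were ordered by their D3 mean, none of the 12 pairs of neighbours passed (lowest adjusted p = 0.0957, T202 and HH1). Neighbours are the pairs closest in mean, so few passes follow from the ordering itself, here and for the other members.

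D10 was called in 20 pairs, of which 17 lay between subspecies, with the GJ line lower in each, and 3 within GJ lines. KMD2 was a partner in 10 of the 20, XS11 in 5 and JH1 in 5. KMD2 was called against each of the 7 XI lines, by log2 differences between -1.95 (MH63) and -1.12 (XXY63), and against the GJ lines KMD1 (-1.15), CJ03 (1.04 higher in CJ03) and T202 (1.22 higher in T202). KMD1, CJ03 and T202 were called against no XI line. Within XI lines no pair was called (1 had an unadjusted p below 0.05, and voom called 0), beside 11.4% of all tests over all genes. Between subspecies 17 of 42 pairs were called, or 40.5%, beside 31.0% of all tests over all genes. The number of D10 calls fell from 20 to 9 without replicate 1 of every line, to 13 without replicate 2 and to 14 without the filter. It rose to 24 by voom and with a pseudocount of 0.1. In the order of means, CJ03 and XS11 were the only neighbours with an adjusted p below 0.05 (0.0364), and their difference stayed below 2-fold.

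D17 was called in 4 pairs. KMD2 was lower than T1C-19 (log2 difference -1.17 ± 0.16 (SE), adjusted p = 0.000988), HH1 (-1.40 ± 0.17, adjusted p = 0.000461) and T202 (1.30 ± 0.22 higher in T202, adjusted p = 0.00637), and KMD1 was lower than HH1 (-1.03 ± 0.15, adjusted p = 0.00129). The number of D17 calls depended on the setting, with 11 pairs by voom, 10 with a pseudocount of 0.1 and 7 without replicate 3 of every line. No neighbours in the order of D17 means had an adjusted p below 0.05 (lowest 0.276). D14 had an adjusted p below 0.05 in 10 pairs, all between subspecies, but was below 2-fold in each (13 pairs had an unadjusted p below 0.05, and voom called 0). That is 10 of 42 pairs between subspecies, where 47.5% of all tests over all genes passed by the adjusted p alone. D27 was called in none of the 38 pairs in which it was tested, and 1 of these had an unadjusted p below 0.05. Voom on the recovered reads called 1 pair of D27, with CJ03 above MH63 by a log2 difference of 1.28 ± 0.36 (SE, adjusted p = 0.0218).

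**Figure D4:**
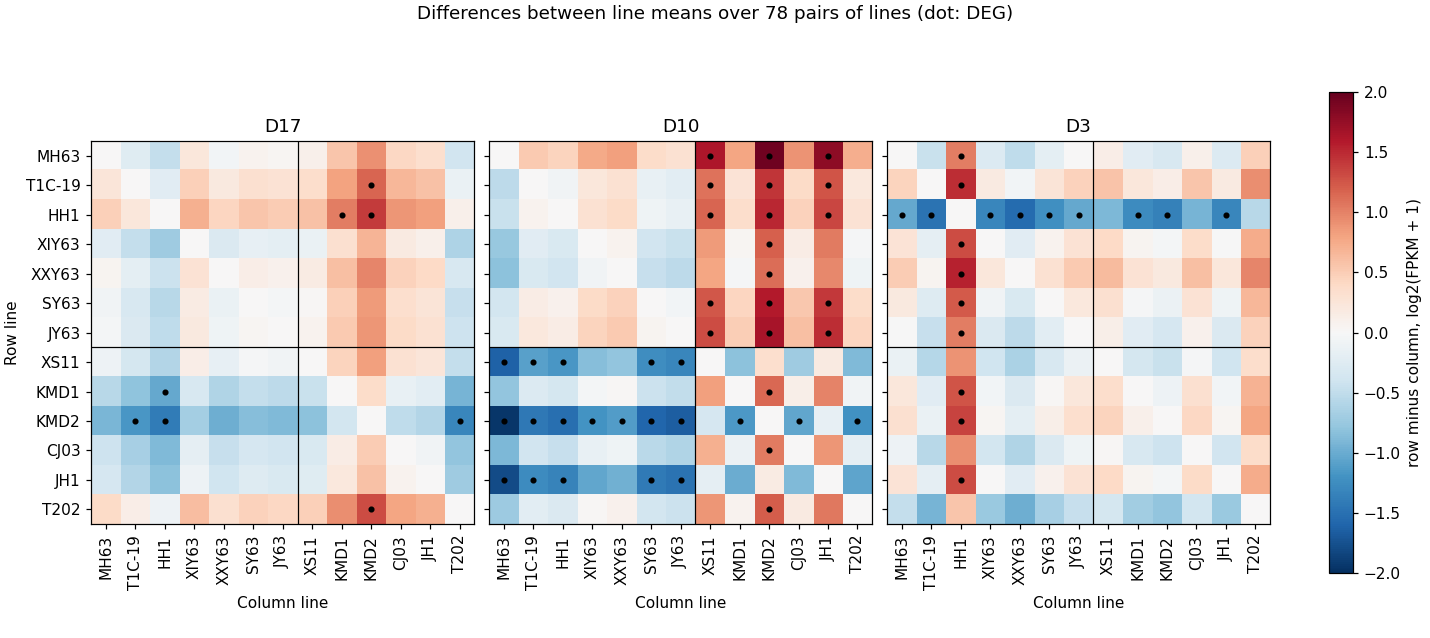
Differences in log2(FPKM + 1) between line means (row line minus column line, colour scale) for D17, D10 and D3 over the 78 pairs, each shown in both directions. Dots mark pairs called DEG, and black lines separate XI from GJ lines. The 9 dotted pairs of D3 all lie on the row or column of HH1, and those of D10 on KMD2, XS11 or JH1.

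The subspecies were then compared over line means, 7 XI against 6 GJ, with the line as the replicate. The lines of a subspecies share a parent, so they are not independent. None of the 5 members tested was a DEG (limma), beside 17.2% of all genes, while 2 members had an unadjusted p below 0.05. D10 was lower in GJ lines by a log2 difference of -0.84 ± 0.22 (SE, adjusted p = 0.01002) and D14 was higher by 0.32 ± 0.10 (adjusted p = 0.0303), both below 2-fold. By the adjusted p alone, 35.8% of all genes passed. The GJ means of D10 lay between 1.12 and 3.87 FPKM and the XI means between 3.59 and 7.58 FPKM, so the highest GJ lines, T202 and KMD1, overlapped with the lowest XI line, XXY63. An exact permutation test over all splits of the 13 line means into 7 and 6 (two-sided) gave a p of 0.0029 for D10 and 0.0076 for D14. The same permutation test gave 0.067 for D17, 0.9003 for D3 and 0.9592 for D27. For members below the filter it gave 0.0699 for OS01G0700900, 0.1923 for FC1 and 0.8531 for IPA1.

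The D10 difference depended on the replicates. Without replicate 1 of every line it was -0.53 (adjusted p = 0.105), and without replicate 3 it was -1.003 and passed the DEG limit, as it did with a pseudocount of 0.1 (-1.11). For D14 the adjusted p was 0.114 with FPKM over plain read totals. D17 was lower in GJ lines by -0.39 ± 0.19 (adjusted p = 0.126), D3 differed by -0.04 ± 0.23 and D27 by 0.00 ± 0.10. The median over these 5 members was -0.04, beside -0.02 over all genes. XI reads were aligned to a genome of the GJ subspecies, and the part of that in these differences was not tested.

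A contrast of the change from parent to GE lines between the backgrounds passed for D17 and D3. This contrast sets the mean of T1C-19 and HH1 minus MH63 against the mean of KMD1 and KMD2 minus XS11. Its SE and p measure the scatter of libraries within lines and not the spread between GE lines. For D17 it was 0.996 ± 0.22 on the log2 scale (SE, adjusted p = 0.00411, limma): D17 was above the parent in T1C-19 (0.25) and HH1 (0.48), and below it in KMD1 (-0.45) and KMD2 (-0.82), of which only KMD2 had an adjusted p below 0.05 on its own. For D3 it was -0.68 ± 0.17 (adjusted p = 0.00892), and without HH1 it was 0.06 (adjusted p = 0.901). By the same test 28.7% of all genes passed. D17 lost the call without replicate 2 (adjusted p = 0.0682), and D3 without replicate 1 (0.0555) or replicate 3 (0.0927). D10 (-0.72, adjusted p = 0.189), D14 (0.31, 0.368) and D27 (0.46, 0.133) did not pass.

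For the 2 dioxygenases that act in sequence, the ratio of the line means varied among lines. These ratios were not tested and carry the scatter of both genes. FPKM are per gene length, so their levels can be set side by side. The mean of D17 was 0.904 times that of D10 in MH63, the lowest ratio, and 3.87 times in XS11, the highest. D10 ran from 4.06 to 11.7 FPKM among the MH63 libraries and had 11 to 15 reads per library in XS11. T202 (2.40), KMD2 (2.80) and JH1 (3.59) also had ratios above those of the 7 XI lines, whereas KMD1 (1.17) and CJ03 (1.49) lay among the XI lines. Over the 13 line means, Pearson's r between D17 and D10 on the log2 scale was 0.60, but it was 0.07 within the 7 XI lines and 0.48 within the 6 GJ lines. These points share libraries and, within a subspecies, a parent, and are given as a description.

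**Figure D5:**
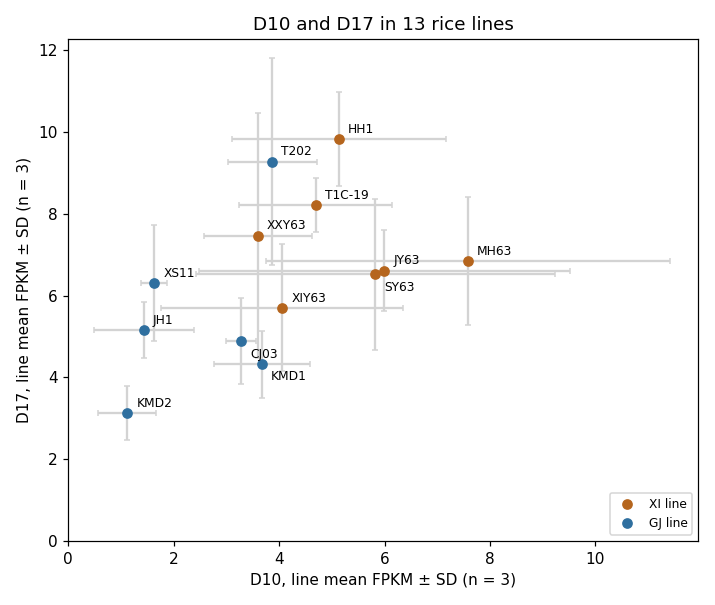
Line means of D10 (horizontal axis, FPKM) and D17 (vertical axis, FPKM) with their SD (n = 3), XI lines in brown and GJ lines in blue. XS11, JH1 and KMD2 lie at the left, with D10 means of 1.12 to 1.63 FPKM, and MH63 at the right with 7.58 FPKM.

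Further member pairs were described in the same way. D17 and D3 ran opposite to each other (r = -0.52 over 13 lines, -0.63 within XI and -0.88 within GJ), with HH1 and T202 high in D17 and low in D3. D27, at its low level, also ran opposite to D3 (r = -0.60 over 13 lines, -0.56 within XI and -0.82 within GJ). D10 and D3 had r = -0.23 over 13 lines, -0.33 within XI and -0.59 within GJ. D10 and D14 had r = -0.74 over 13 lines, -0.14 within XI lines and -0.69 within GJ lines. D14 and D3, which act in the same receptor complex, had r = 0.25.

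For each well-read member, the gene most alike over the 13 line means was sought among 19554 genes with a mean of at least 1 FPKM. For D17 it was OS08G0549950 (r = 0.925), for D10 OS10G0523700 (r = 0.909) and for D3 OS07G0173200 (r = 0.929). For D14 it was a predicted gene of the authors' assembly that carries only a running number (r = 0.920). The next gene in each list was almost as close (r between 0.901 and 0.928), so the order among the closest genes rests on small differences. Each r is the highest found among 19554 genes over 13 line means that share parents. A high r can arise from such a search alone, so these genes are given as a description.

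A wider list of 21 entries was drawn up from general knowledge of strigolactone and tillering genes, and its entries are given by identifier, since the expression files do not name them. The identifiers were not checked against gene descriptions, so an entry may lie outside this pathway. Of these, 19 were listed, 9 were at 0 in all libraries, 6 reached 0.5 FPKM in a library and 1 had a mean of at least 1 FPKM. The 3 entries put in it as further MAX1 homologues (OS01G0701500, OS02G0221900 and OS06G0565100) had 0, 2 and 20 reads in all. At most 3 entries were tested in a comparison with a parent, none was called higher, and OS03G0437200 alone was called, as lower in XIY63 than in MH63 and lower in XS11 than in MH63.

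OS03G0437200, whose place in the pathway was not checked, varied widely between replicates. MH63 had 3.89, 4.02 and 1.71 FPKM, XIY63 had 0.908, 0.168 and 0.615 FPKM, and XS11 had 0.781, 0.583 and 1.78 FPKM. The libraries of XIY63 lay below those of MH63, and those of XS11 overlapped with them. The log2 difference was -1.40 ± 0.31 (SE) in XIY63 (adjusted p = 0.0245) and -1.03 ± 0.32 in XS11 (adjusted p = 0.0342), and each call was lost under 8 of 16 alternative settings. SY63 had 16.4, 18.2 and 4.16 FPKM, all above the MH63 libraries, with a log2 difference of 1.57 ± 0.51 that missed the threshold (adjusted p = 0.0847). JY63 had 6.30, 90.9 and 0 FPKM, so 1 library carried nearly all of its reads. Between subspecies it was a DEG and lower in GJ lines (-1.62 ± 0.41, adjusted p = 0.00692), and the other 2 entries tested there passed by the adjusted p but not by the fold change. These were OS06G0610350, higher in GJ lines by 0.51 ± 0.09 (adjusted p = 0.000750), and OS09G0491532, lower by 0.34 ± 0.11 (adjusted p = 0.0241). By the adjusted p alone, 35.8% of all genes passed there. Both entries rest on few reads, 143 and 158 in all, with at most 10 and 11 in a library. Over 21 alternative settings, the highest adjusted p (limma) was 0.00613 for OS06G0610350 and 0.404 for OS09G0491532.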

How the data were processed

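RNA of 39 leaf libraries was sequenced from a kit that does not mark strand, so a gene and an overlapping or antisense partner could not be told apart. The authors used HISAT2 2.09 for alignment to IRGSP-1.0 and featureCounts 1.5.0-p3 for counting, and deposited FPKM values. Read totals implied by these values were proportional to median-of-ratios size factors, so a scaling by such factors is already part of the FPKM. Line names come from the sample titles, and subspecies, parents and transgenes from the methods of the study.

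Reads were recovered from the whole-number ratios between a gene's values in different libraries. Of 1036152 values above 0, 99.9942% came out whole within 0.01 read. No count test was run as the main test, and voom on the recovered reads was an alternative. The main test was that of limma 3.58.1 (R version 4.3.3), applied to log2(FPKM + 1) with the variance trend over mean log2 reads, a filter of 0.5 FPKM in 3 libraries of each fit and Benjamini-Hochberg adjustment over all genes tested. Fold changes are on the log2(FPKM + 1) scale and understate those of low genes. DEGs had an adjusted p below 0.05 and a 2-fold change. F tests and the contrast of GE effects used the adjusted p alone. The recovery of reads and the limma fits were each tested on simulated data. Exact permutation tests and tables used Python 3.11.15 with numpy 2.4.6, pandas 2.3.3 and scipy 1.17.1, and figures matplotlib 3.10.9.

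All 10 members are named. Of the wider list, entries called against a parent or entered as copies of a member are named, and the most alike gene is the one with the highest Pearson's r. The members, lists and tests were chosen with earlier results of these data known. Alternatives were a pseudocount of 0.1, no filter, the default variance trend, voom, the replicate number as a block, plain read totals, no minimum fold change and leaving out replicates or lines.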

Additional observations from a re-analysis of the deposited data

Results flagged for a closer look

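A contrast of the change from parent to GE lines between the MH63 and XS11 backgrounds passed for 2 members (limma). For D17 the signed change in the MH63 background minus that in the XS11 background was 0.996 on the log2 scale (adjusted p = 0.00411), with both GE lines above the parent in the first and below it in the second. For D3 it was -0.68 (adjusted p = 0.00892), and this rests on HH1, since without that line it was 0.06 (adjusted p = 0.901). Each background holds only 2 GE lines, and in the MH63 background they carry different transgenes. The p measures the scatter of libraries within lines, so it does not cover the spread between GE lines. No line mean of a tested member lay far enough from the others of its subspecies to be marked as an outlier in 10 groups checked, with D3 in HH1 the closest (gap over range 0.523 among 7 lines, under the critical value).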

How the results depend on the processing

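Counts of called members stayed within 1.5 times the reported count in 113 of 131 alternatives. The 1 call in the 11 comparisons with a parent became 2 with a pseudocount of 0.1, 3 with voom and 4 without a minimum fold change, and 0 to 2 when 1 library was left out. The 33 calls over 78 pairs became 75 without a minimum fold change, and lay between 23 and 34 without 1 replicate number. Between MH63 and XS11, 1 call became 2 without a minimum fold change. Between subspecies, 0 calls became 1 with a pseudocount of 0.1, 2 without a minimum fold change and 2 by the exact permutation test at an unadjusted p below 0.05, and 0 to 1 without 1 replicate number. Leaving out 1 replicate number gave 1 to 2 members among XI lines (1 reported) and 0 to 2 among GJ lines (3 reported). For the contrast of GE effects, whose alternatives were chosen after seeing the data, 2 became 1 without 1 replicate number and 1 without HH1, where the D3 difference changed sign to 0.056. The cause was not tested, except that fewer samples or a dropped limit are part of these settings. Of 349 alternatives for single genes, 298 kept their direction and their side of the threshold.

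Same-numbered libraries did not deviate together: in no comparison with a parent were all 3 correlations above 0.1. With the replicate number as a block, the members called were 1 in the comparisons with a parent and 32 over 78 pairs, and D3 in HH1 kept its log2 difference of -1.03 (adjusted p = 0.00324). No voom or block could be run on line means.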
